A study of Mus musculus with 22 samples.

Results

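The 7 genes described here, Sst, Npy, Vip, Cck, Penk, Pdyn and Tac1, encode the precursors of neuropeptides that mark groups of interneurons and of striatal projection neurons. They were chosen by name: every probe that carried one of these symbols, or an older synonym, in the scanner files was taken. This gave 11 of 41174 probes and 7 of 28767 features, a feature being a gene or, where a probe had no gene symbol, the probe itself. All 7 genes passed the filter on dim signal in every comparison below. The study hybridised RNA from mouse brain labelled whole brain to 22 Agilent 2-colour arrays, each holding 1 animal labelled Agtr2 knockout and 1 control animal. Agtr2 encodes the type 2 receptor of the peptide hormone angiotensin II. At embryonic day 15 (E15) there were 8 knockout and 6 control biological replicates on 14 arrays, and at postnatal day 1 (P1) there were 4 and 4 on 8 arrays. Strain, sex, the construction of the Agtr2 allele and any pooling of brains are not given in the sources used here, nor is the genotype of the controls beyond the word control.

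Neuropeptides are cut from longer precursor proteins. Prohormone convertases cut at pairs of basic residues, carboxypeptidase E trims the ends, and peptidylglycine amidating monooxygenase (Pam) amidates many of the products, which are stored with granins in dense core granules and act on G protein-coupled receptors. Somatostatin (Sst), neuropeptide Y (Npy) and vasoactive intestinal peptide (Vip) belong to different groups of cortical GABA interneurons, and cholecystokinin (Cck) to interneurons and also to pyramidal neurons. In the striatum, the enkephalin precursor (Penk) marks neurons of the indirect pathway, while the dynorphin precursor (Pdyn) and Tac1, the precursor of substance P and neurokinin A, mark neurons of the direct pathway. Penk RNA is also known from mesenchymal tissue of the embryo.

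Several of these genes are textbook targets of cAMP signalling, and promoters of the members are shown for that reason. RefSeq windows of assembly GRCm38.p6 matched 6 of the 7 members, the exception being Penk. The 120 bases before the annotated start are printed 5′ to 3′ on the strand of the gene for the 4 members that held the letters TGACG, the core of the cAMP response element, on either strand, and capitals mark the core or the full element.
Sst (chr16:23890845-23890964, minus strand): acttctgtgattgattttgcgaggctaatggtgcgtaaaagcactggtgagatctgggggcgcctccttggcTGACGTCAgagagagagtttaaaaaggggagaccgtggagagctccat
Vip (chr10:5639098-5639217, plus strand): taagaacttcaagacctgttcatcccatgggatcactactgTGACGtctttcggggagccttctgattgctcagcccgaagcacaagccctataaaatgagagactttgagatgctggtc
Cck (chr9:121495695-121495814, minus strand): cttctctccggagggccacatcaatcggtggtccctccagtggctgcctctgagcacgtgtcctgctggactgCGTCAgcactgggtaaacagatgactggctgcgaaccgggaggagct
Tac1 (chr6:7554941-7555060, plus strand): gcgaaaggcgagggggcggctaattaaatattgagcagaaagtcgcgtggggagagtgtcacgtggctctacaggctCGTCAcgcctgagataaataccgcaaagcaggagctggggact
The full palindromic element TGACGTCA stood 48 to 41 bases before the start of Sst. Of 32851 RefSeq promoter windows, 1.55% held it in the 250 bases before the start, and 1 of the 6 matched members did. The core TGACG, or CGTCA on the other strand, which the full element contains in both directions, was in 17.8% of all windows and in 4 of the 6 members. It stood 79 to 75 bases before the start of Vip, 47 to 43 before that of Cck, and 43 to 39 and again 197 to 193 before that of Tac1. The TATA box letters TATAAA, on either strand, were in 12.4% of all windows and among the members only in Vip, 30 to 25 bases before the start and at 2 positions further upstream. The windows of Npy and Pdyn held none of these letters. A match is a description of these letters only, and neither binding nor cAMP signalling was measured. A link between these letters and the changes with age described below was not tested.

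Whole-brain signal is given on the log2 scale, as the mean over the arrays of an animal after normalization, so 1 unit is a doubling of signal, and levels of different probes are not comparable with each other. Between 74.9% and 89.3% of spots per E15 array were well above background, and between 71.3% and 89.5% per P1 array. Across all probes, the knockout over control ratios of the 2 dye orientations of a replicate correlated between -0.23 (P1 replicate 2) and 0.68 (E15 replicate 8). Of 9 neuron markers measured, such as Snap25 and Tubb3, all 9 were present at both ages. Markers of tissue outside the brain varied between E15 samples: the mean level over up to 10 skeletal muscle genes ran from 6.62 to 11.65 in E15 controls (highest in control 1) and from 6.68 to 10.43 in E15 knockouts (highest in knockout 8), against 6.60 to 6.91 in all P1 animals. The targeted gene itself gave no contrast. Agtr2 changed by -0.39 (SE 0.30, adjusted p = 0.790) at E15 and by 0.11 (SE 0.08, adjusted p = 0.722) at P1, and whether its probe lies in the deleted part is not given, so the probe does not check the labels.

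The first comparison asked how the peptide RNAs differ between E15 and P1 in control animals. All 7 members had a higher mean at P1, and 3 of them, Sst, Tac1 and Cck, rose past the threshold (limma, Benjamini-Hochberg adjusted p under 0.05). Over all 25265 features tested, 13.8% were called higher at P1 and 36.5% were called in either direction. The median change of the members was 0.86 and that of all features -0.08. In bulk tissue, more cells of a type and more RNA per cell cannot be told apart, and here age also cannot be told apart from the arrays, the scan days and the scanner software version, which differed between the ages per the file headers.

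Somatostatin, which inhibits the release of other hormones and dampens neuronal firing, showed the largest change of the 7 in control animals. Its level ran from 9.60 to 10.26 over the 6 E15 controls (median 9.95), and was 10.75, 11.15, 11.04 and 11.23 in P1 controls 1 to 4. Every P1 control lay above every E15 control. The rise was 1.09 on the log2 scale (SE 0.13, n = 6 and 4, adjusted p = 0.00018), or 2.13-fold with a 95% interval of 1.75 to 2.60. The change of Sst was larger than that of 97.4% of all features. Its place as the largest of the 7 depended on the processing. Over 7 settings, the main one included, Sst ran from 0.74 to 1.17 and Tac1 from 0.63 to 1.23.

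**Figure D1:**
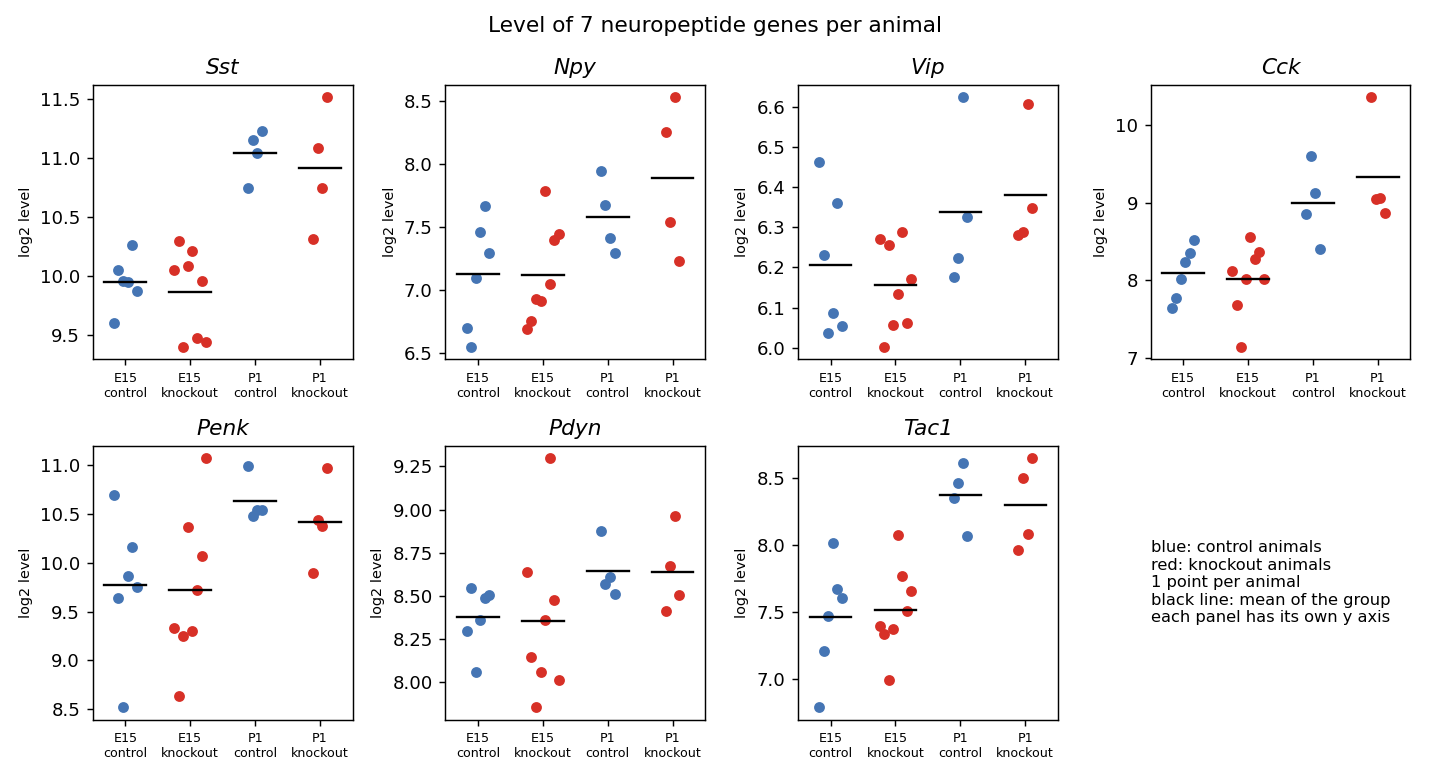
Log2 level (y axis, own scale in each panel) of the 7 genes, 1 point per animal, for 6 E15 control, 8 E15 knockout, 4 P1 control and 4 P1 knockout animals, with black lines at group means. For Sst the P1 controls lie between 10.75 and 11.23, above all E15 controls, which reach 10.26, while Vip stays between 6.00 and 6.62 in all groups.

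Tac1, whose peptide substance P is a transmitter of striatal output and of sensory neurons, rose by 0.91 (SE 0.21, adjusted p = 0.00643; 1.88-fold). E15 controls ran from 6.79 to 8.02 (median 7.54), and P1 controls 1 to 4 were at 8.35, 8.46, 8.61 and 8.07. The groups did not overlap, but the highest E15 control and the lowest P1 control were only just apart. Tac1 was read by 3 probes, and the other 2 gave smaller differences between the group means, 0.61 and 0.16. The probe with 0.61 was well above background in 3 of 14 control channels at E15 and in all 8 at P1.

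Cck, the gut and brain peptide that acts on the receptors Cckar and Cckbr, rose by 0.90 (SE 0.23, adjusted p = 0.0119; 1.87-fold, 95% interval 1.31 to 2.67). The level ran from 7.64 to 8.52 in E15 controls (median 8.13) and was 8.85, 9.60, 9.12 and 8.41 in P1 controls. P1 control 4 lay inside the E15 range, and the other 3 lay above it. The second Cck probe, which the array's annotation assigns to another transcript record, did not show this difference. Its group means were 6.82 at both ages, and its P1 minus E15 difference was -0.01 (SE 0.09), although it was well above background on every array. Averaged over both probes, the change of Cck was 0.45 (adjusted p = 0.00831).

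Penk had nearly as large a mean change as Tac1 and Cck but a much wider spread at E15. Its level was between 8.52 (control 3) and 10.69 (control 1) in E15 controls, with a median of 9.81 and an SD of 0.72, and was 10.98, 10.48, 10.53 and 10.54 in P1 controls. E15 control 1 was thus above 3 of the 4 P1 controls. The difference of 0.86 (SE 0.33) did not pass the threshold (adjusted p = 0.0629). It did so when either extreme animal was left out, with 1.05 (adjusted p = 0.0157) without E15 control 1 and 0.61 (adjusted p = 0.0479) without E15 control 3, and also as the mean of both Penk probes, with 0.74 (adjusted p = 0.0239), and on the scanner's processed signals, with 0.94 (adjusted p = 0.0327). The weaker Penk probe had a difference of 0.61 (SE 0.17) between the same groups. E15 control 1 also had the highest levels of meninges and fibroblast genes (10.29, the other 5 at 8.08 to 9.37) and of muscle genes, while control 3 had the lowest meninges level, 8.08. The part of these tissues in the Penk values was not tested.

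The remaining 3 members had smaller differences that did not pass. Npy, an inhibitory peptide of interneurons that also stimulates feeding, ran from 6.55 to 7.66 in E15 controls (median 7.19) and was 7.94, 7.67, 7.41 and 7.30 in P1 controls, a difference of 0.45 (SE 0.22, adjusted p = 0.130). Pdyn, whose dynorphins act on the kappa opioid receptor, ran from 8.06 to 8.54 in E15 controls (median 8.42) against 8.88, 8.57, 8.61 and 8.51 at P1, a difference of 0.27 (SE 0.11, adjusted p = 0.0751). In both genes the P1 values reached into the E15 range. Vip, a peptide of interneurons that target other interneurons, differed by 0.13 (SE 0.11, 95% interval -0.12 to 0.38, adjusted p = 0.390), and by 0.51 (adjusted p = 0.247) on the scanner's processed signals. It was also the dimmest relative to background: its probe was well above background in 10 of 14 control channels at E15 and in 7 of 8 at P1.

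The same comparison in the knockout channels used other animals but the same arrays. Again all 7 members had the higher mean at P1, and 4 rose: Sst, Cck, Tac1 and Npy. Over all 25578 features tested there, 11.1% were called higher and 25.9% in either direction, and the median change was 0.76 for the members and -0.07 for all features. Sst ran from 9.40 to 10.30 in E15 knockouts (median 10) and was 10.31, 11.08, 10.75 and 11.51 in P1 knockouts 1 to 4, a rise of 1.05 (SE 0.23, adjusted p = 0.00609). P1 knockout 1 lay just above the highest E15 knockout, and the other 3 lay further above.

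Cck, by its brighter probe, rose by 1.31 in knockout animals (SE 0.29, adjusted p = 0.00668; 2.47-fold, 95% interval 1.59 to 3.84). It ran from 7.15 to 8.56 at E15 (median 8.07) and was 10.35, 9.04, 9.06 and 8.86 at P1, so every P1 knockout lay above every E15 knockout and knockout 1 stood apart from the other 3. The second Cck probe again did not show this, with a difference of -0.08 (SE 0.10), and averaged over both probes Cck rose by 0.61 (adjusted p = 0.00782), less than Sst. Without P1 knockout 1 the rise by the brighter probe was 0.96, the smallest value over the animals left out in turn. Tac1 rose by 0.78 (SE 0.18, adjusted p = 0.00849), from an E15 range of 6.99 to 8.07 (median 7.45) to 7.96, 8.499, 8.08 and 8.65, with P1 knockout 1 inside the E15 range. Of the other 2 Tac1 probes, 1 differed by 0.62 (SE 0.06) and was well above background in 2 of 14 knockout channels at E15. The other showed no difference, with -0.00 (SE 0.10).

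Npy rose by 0.76 (SE 0.26, adjusted p = 0.0444) in the knockout channels. Its E15 range was 6.69 to 7.78 (median 6.99), and its P1 values of 8.25, 7.54, 8.53 and 7.23 put knockouts 2 and 4 inside that range. This call held in only 3 of 12 fits that left out 1 animal (adjusted p from 0.0228 to 0.161) and was lost without the filter on dim features (adjusted p = 0.0507). Penk (0.70, SE 0.38, adjusted p = 0.192), Pdyn (0.28, SE 0.23, adjusted p = 0.387) and Vip (0.23, SE 0.08, adjusted p = 0.0601) did not pass. Without E15 knockout 8, the animal with the highest Penk level of its group (11.07), the Penk difference was 0.89 (adjusted p = 0.0432), and on processed signals that of Vip was 0.85 (adjusted p = 0.0179).

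**Figure D2:**
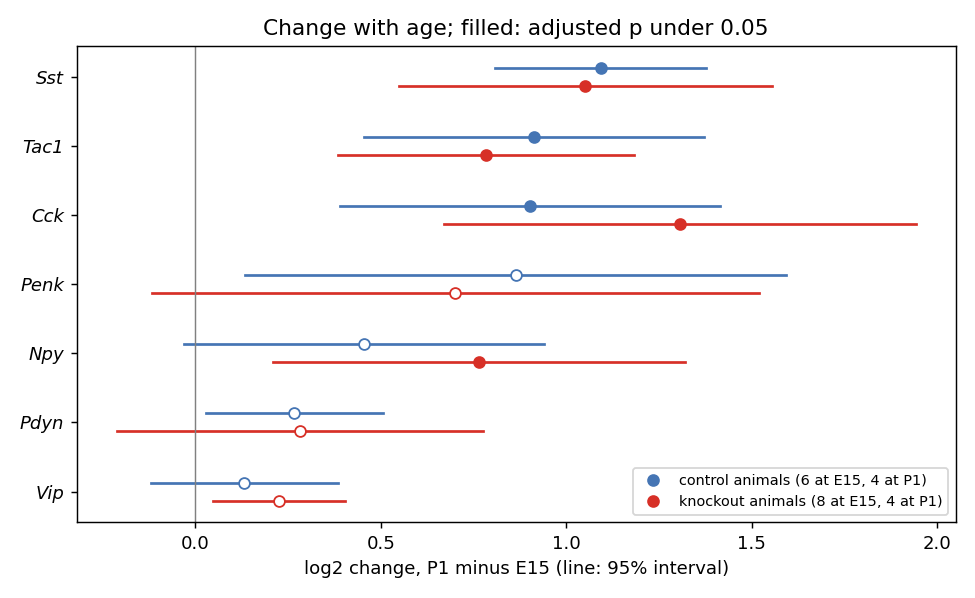
Change from E15 to P1 (x axis, log2) with 95% intervals for the 7 genes in control animals (blue, 6 and 4) and knockout animals (red, 8 and 4), filled where the adjusted p is under 0.05. All 14 estimates lie above 0, from 0.13 for Vip in controls to 1.31 for Cck in knockouts, and 7 of the 14 are filled.

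Genes that process and store peptides had higher levels at P1 as well. Of 15 genes for convertases, granins and granule release, 10 were called higher and 0 lower in control animals, with a median change of 0.40. Chga, a granin of the granule core, rose by 1.16 (SE 0.07, adjusted p = 1.89e-06). Cadps, which primes granules for release, rose by 1.28 (adjusted p = 0.000244), and the granins Scg2 and Chgb by 1.01 (adjusted p = 0.00161) and 0.99 (adjusted p = 0.00018). In knockout animals 4 of the 15 were called higher and 0 lower (median 0.33): Cadps (1.07), Chga (1.04), Scg5, the chaperone of the convertase Pcsk2 (0.81), and Pcsk1n, an inhibitor of Pcsk1 (0.76). Markers of neurons in general were also higher: 6 of 9 were called higher in control animals, with a median of 0.58, and 3 of 9 in knockouts, with a median of 0.33. Other cell types shifted in the same comparison of control animals: 6 of 8 astrocyte genes were called higher (median 0.93), 7 of 12 meninges and fibroblast genes lower (median -1.03) and 4 of 4 erythroid genes lower (median -1.59), while 0 of 9 skeletal muscle genes were called (median -1.07). In knockouts 3 of 8 astrocyte genes were called higher (median 0.68), and 2 of 12 meninges and fibroblast genes (median -0.86) and 4 of 4 erythroid genes (median -1.19) lower. The part of these cell types and of neurons in the peptide and granule changes was not tested.

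The receptors of these peptides moved in both directions. Of 18 measured in control animals, 4 were called higher and 7 lower, with a median of -0.00. The cholecystokinin receptor Cckbr fell by 0.68 (adjusted p = 0.000239) and the somatostatin receptor Sstr2 by 0.63 (adjusted p = 0.00569), while the dynorphin receptor Oprk1 rose by 0.56 (adjusted p = 0.00346) and the neuropeptide Y receptor Npy2r by 0.42 (adjusted p = 0.00468). Other receptors of the same peptides went the other way, as Sstr1 rose by 0.92 (adjusted p = 0.0422) and Cckar by 0.38 (adjusted p = 0.0287). The somatostatin receptors Sstr4 (-0.58, adjusted p = 0.00591) and Sstr3 (-0.25, adjusted p = 0.00948) were called lower, as Sstr2 was. For Sst, more receptors were thus called lower than higher, while for Cck 1 receptor rose and 1 fell. Sstr1, Sstr3, Sstr4 and Cckar were chosen here after their values were seen. In knockout animals 4 receptors were called higher and 3 lower. Cckar was called higher (0.70, adjusted p = 0.00135), Cckbr lower (-0.69, adjusted p = 0.00338), and Oprk1 (0.49) and Npy2r (0.44) higher. Sstr1 was called higher there too (0.67), and Sstr4 (-0.54) and Sstr3 (-0.22) lower.

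Relatives of the members in the same peptide families did not follow one direction. Cort, the somatostatin paralog cortistatin, rose by 2.09 in control animals (SE 0.30, adjusted p = 0.00113, values in 8 of 10 animals) and by 2.13 in knockouts (adjusted p = 0.000222, 10 of 12 animals). The missing Cort values were all at P1 in both channels, the smaller group. Tac2, which encodes neurokinin B, fell by 0.58 in control animals (adjusted p = 0.00994), Pomc, the precursor of endorphin and melanocortins, by 0.83 (adjusted p = 0.0136), and Gast, the gastrin relative of Cck, by 1.18 (adjusted p = 0.0431). In total 1 of 8 relatives was called higher and 3 lower in controls, and 1 and 0 in knockouts, where Gast was at -1.16 (adjusted p = 0.0569), Pomc at -0.50 (adjusted p = 0.142) and Tac2 at -0.33 (adjusted p = 0.154).

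Marker genes of the cell groups that carry the peptides were mixed too. Of 24 interneuron genes, 8 were called higher and 7 lower in control animals (median 0.12). Gad1, an enzyme of GABA synthesis, rose by 1.12 (adjusted p = 0.000253), whereas the transcription factors Nr2f2, Dlx2 and Dlx5, which act in progenitors and migrating interneurons, fell by 1.61 (adjusted p = 6.39e-05), 1.74 (adjusted p = 0.00118) and 0.80 (adjusted p = 0.00155). Their relative Dlx6 went the other way and rose by 0.42 (adjusted p = 0.00312). In knockouts 5 were called higher and 3 lower, among them Nr2f2 (-1.85), the calcium-binding protein Calb1 (0.84) and Dlx6 (0.46). Dlx2 (-1.20, adjusted p = 0.131) and Dlx5 (-0.49, adjusted p = 0.166) did not pass there. Pvalb, the marker of a late-maturing interneuron group, was not present at P1 by the filter on dim signal.

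Of 17 striatal projection neuron genes, 2 were called higher and 2 lower in control animals (median -0.03). Rasgrp2 rose by 0.43 (adjusted p = 0.00196), while Isl1, a transcription factor of direct pathway neurons, fell by 1.13 (adjusted p = 0.00672) and the adenosine receptor Adora2a by 1.00 (adjusted p = 0.0241). Without E15 control 1, 1 of these genes was called higher and 2 lower. In knockouts 0 were called higher and 2 lower, Isl1 (-0.98, adjusted p = 0.0221) and Adora2a (-1.27, adjusted p = 0.0316), with Foxp2 at -0.48 (adjusted p = 0.0576).

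**Figure D3:**
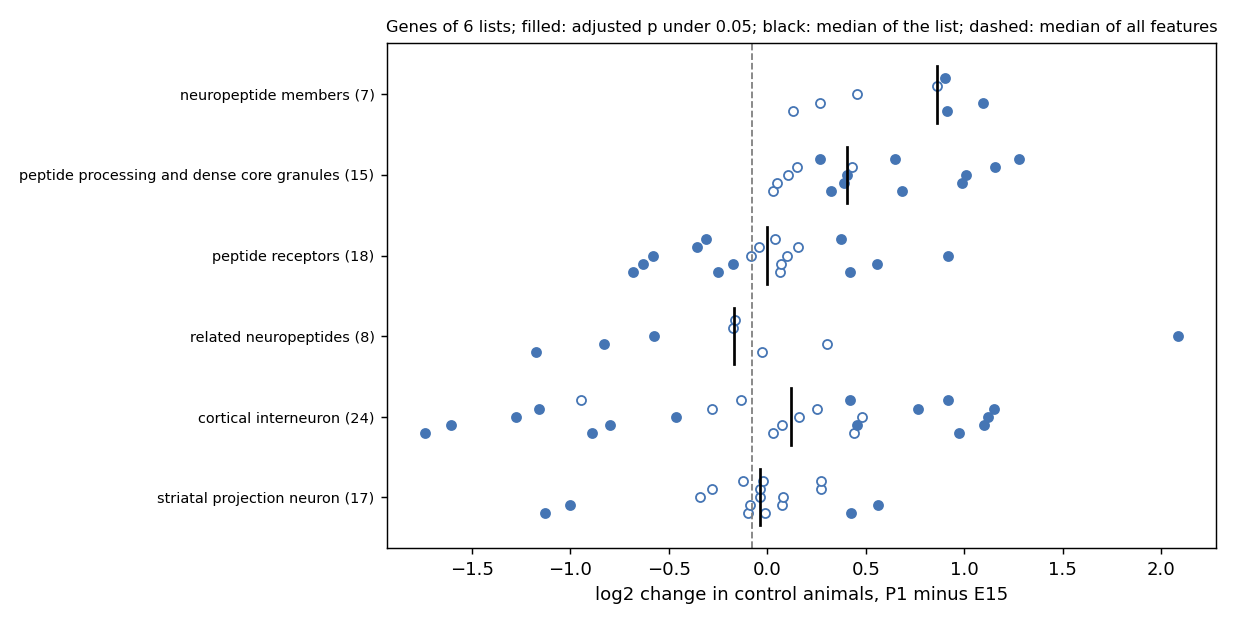
Change from E15 to P1 in control animals (x axis, log2) of the genes in 6 lists, 1 point per gene, filled where the adjusted p is under 0.05, with the number of genes tested in brackets, the median of each list as a black line and the median of all features, -0.08, as a dashed line. The 7 peptide precursors and the 15 processing genes lie above 0 throughout, while the receptors, relatives and cell group markers spread to both sides.

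The main question of the series was whether loss of Agtr2 changes the brain, and for these peptides no difference was detectable. At E15 0 of 24126 features were called (0%; 1610 had an unadjusted p under 0.05, none of them a member), and at P1 0 of 24587 (0%; 2294 unadjusted, none of them a member). Members and relatives are therefore described by their replicate values and intervals. Relative to all features, though, the members were variable: their SD between replicates exceeded that of 65.7% to 99.4% of features at E15 and of 88.0% to 99.1% at P1, except for Vip, with 30.1% and 13.02%. This ranking was not matched for brightness, and the processing shrinks the ratios of dim probes, so it partly depends on signal.

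At E15 Sst had a mean knockout over control of -0.10 (SE 0.16, 95% interval -0.47 to 0.28, adjusted p = 0.899, n = 8). The 8 values ran from -0.79 (replicate 6) to 0.56 (replicate 4), with a median of 0.07 and with 4 above 0 and 4 below. At P1 replicates 1 to 4 gave -0.43, -0.07, -0.29 and 0.29, a mean of -0.13 (SE 0.13, 95% interval -0.45 to 0.20, adjusted p = 0.802). Both intervals include 0, and neither age had all its replicates on 1 side of 0.

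Npy gave 0.09 at E15 (SE 0.13, 95% interval -0.21 to 0.40, adjusted p = 0.872), with values from -0.61 (replicate 6) to 0.67 (replicate 4) and a median of 0.21. At P1 it gave 0.31, -0.13, 1.11 and -0.07 in replicates 1 to 4, a mean of 0.30 (SE 0.22, 95% interval -0.27 to 0.88, adjusted p = 0.723). Replicate 3 accounted for most of this mean, which was 0.04 without it. Vip had the narrowest intervals of the 7, -0.13 to 0.07 at E15 around -0.03 (SE 0.04, adjusted p = 0.869; values from -0.18 to 0.17, median -0.05) and -0.06 to 0.15 at P1 around 0.04 (SE 0.04, adjusted p = 0.792), with values of 0.11, 0.07, -0.02 and 0.02 in the P1 replicates. Its signal was dim, and the offset of 50 added before the logarithm shrinks the ratios of dim probes.

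Cck was at -0.08 at E15 (SE 0.13, 95% interval -0.36 to 0.21, adjusted p = 0.896; values from -0.79 in replicate 3 to 0.41 in replicate 4, median -0.06). At P1 its replicates 1 to 4 gave 1.499, -0.55, -0.06 and 0.45, with a mean of 0.33 (SE 0.34, 95% interval -0.54 to 1.204, adjusted p = 0.806). Replicate 1 stood apart in both dye orientations, 1.79 and 1.21, and without it the mean was -0.05. The second Cck probe gave -0.22 in that replicate and between -0.05 and -0.00 in the other 3. The medians of 11 or 12 cortex and hippocampus genes in P1 replicates 1 to 4 were 0.63, -0.55, 0.60 and -0.17, and those of 15 hindbrain and cord genes were -0.37, 0.32, -0.57 and 0.21. Forebrain and hindbrain markers thus lay on opposite sides of 0 in each P1 replicate, and their part in the Cck values was not tested.

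Penk was the most variable member at E15 and also varied at P1. Of its E15 values, 7 lay between -0.79 and 0.19, and replicate 8 gave 2.60, with 2.67 and 2.54 in its 2 dye orientations; the median of all 8 was -0.43. The mean was -0.08 (SE 0.37, SD 1.12, 95% interval -0.92 to 0.76, adjusted p = 0.970), and -0.46 (adjusted p = 0.629) without replicate 8. The second Penk probe also had its highest value in replicate 8, 0.97, against -0.44 to 0.05 in the other 7.

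The knockout animal of replicate 8 had the highest Penk level of the 8, 11.07, and its control, number 3, the lowest of the 6, 8.52. Both sides of the ratio therefore stood at the end of their group. In the same replicate the median knockout over control of 12 meninges and fibroblast genes was 2.49 and that of 10 skeletal muscle genes 3.54, while the median of 12 cortex and hippocampus genes was -1.54. In the other 7 replicates the meninges medians ran from -1.86 to 0.48, the muscle medians from -3.50 to 0.24 and the cortex medians from -0.32 to 0.65. Replicate 4, which had 1 array, had the lowest meninges and muscle medians, and its Penk value was -0.42 (-0.27 before subtraction of the dye effect). The part of these tissues in the Penk values was not tested. At P1, Penk gave -1.09, -0.04, -0.16 and 0.43, with a mean of -0.22 (SE 0.25, 95% interval -0.85 to 0.42, adjusted p = 0.83), and 0.08 without replicate 1.

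**Figure D4:**
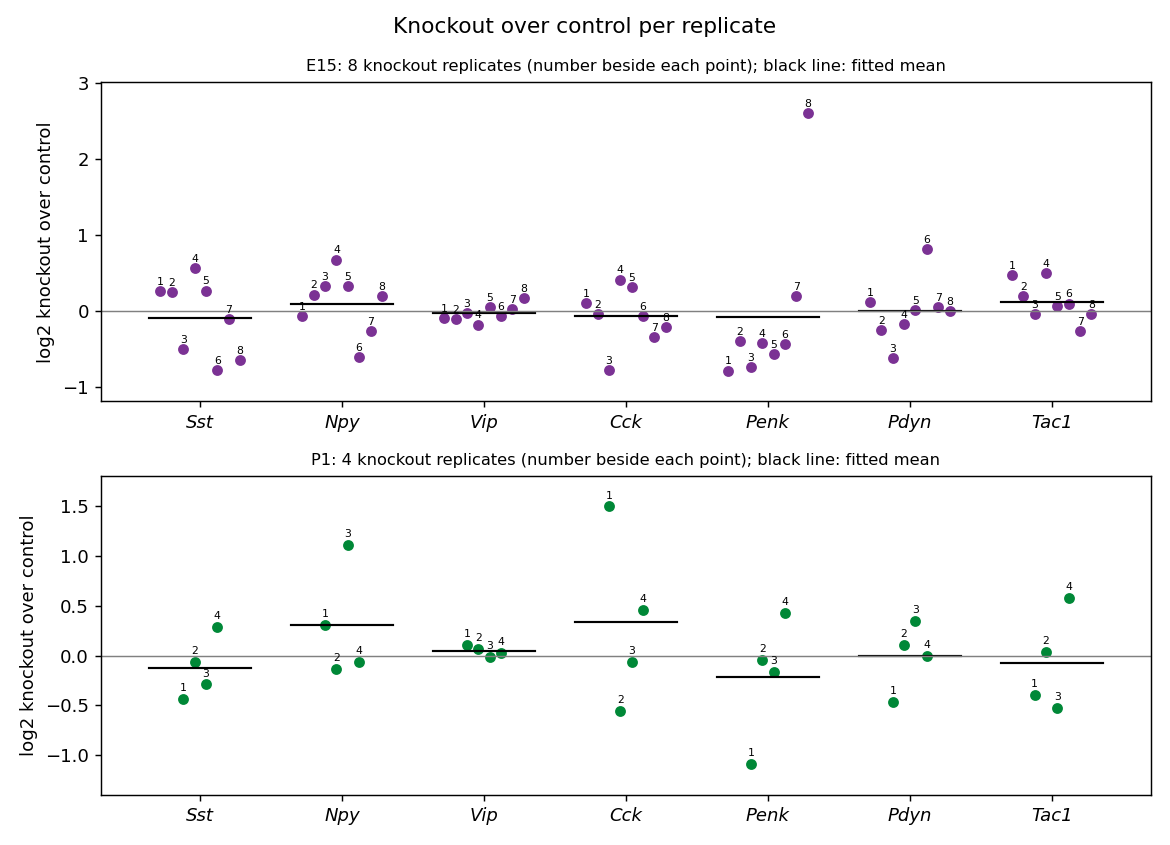
Log2 knockout over control (y axis) of the 7 genes, 1 numbered point per knockout replicate, 8 at E15 (top) and 4 at P1 (bottom), with black lines at the fitted means. Penk in E15 replicate 8 (2.60) and Cck in P1 replicate 1 (1.499) are the highest points, and the fitted means lie between -0.22 and 0.33.

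Pdyn was at 0.00 at E15 (SE 0.13, 95% interval -0.30 to 0.30, adjusted p = 0.999), between -0.62 (replicate 3) and 0.81 (replicate 6) with a median of 0.00. At P1 its replicates gave -0.47, 0.10, 0.35 and -0.01, with a mean of -0.00 (SE 0.14, 95% interval -0.35 to 0.35, adjusted p = 0.996). Tac1 was at 0.12 at E15 (SE 0.09, 95% interval -0.08 to 0.32, adjusted p = 0.784), from -0.27 (replicate 7) to 0.49 (replicate 4) with a median of 0.08. Its P1 replicates were -0.39, 0.04, -0.53 and 0.58, with a mean of -0.08 (SE 0.20, 95% interval -0.58 to 0.43, adjusted p = 0.934). Both genes had replicates on either side of 0 at each age.

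At P1, replicate 1 gave the lowest Sst, Penk and Pdyn values and the highest Cck and Vip values, and replicate 3 the highest Npy value and the lowest Tac1 value. At E15 replicate 4 was highest for Sst, Npy, Cck and Tac1, replicate 6 for Pdyn and replicate 8 for Penk and Vip. Replicate 4 had 1 array, and before subtraction of the dye effect its Tac1 value was 0.38, under the 0.47 of replicate 1. In E15 replicate 4 all 9 neuron markers were above 0 as well, with a median of 0.55, and their part in the peptide values was not tested.

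Scan day was a batch at E15, and mean values differed in sign between the days for several members. Replicates 1 to 4 were scanned on 1 day, and the arrays of replicates 5 to 8 on 2 others. A difference between that day and the 2 others therefore cannot be told apart from a difference between the knockout animals. Mean Sst was 0.25 on the day of replicates 1 to 4 (with no dye correction for replicates 3 and 4), -0.42 on the day that held most arrays of replicates 5 to 8, and -0.00 on the day that held 1 array each of replicates 5 and 8. Penk was -0.51, 0.47 and 0.98 on these days, where the means above 0 came with the arrays of replicate 8 (2.54 and 2.67). The only other array of the day with 2 arrays was at -0.71. The other 5 arrays of the day that held most arrays of replicates 5 to 8 lay between -0.58 and 0.25. Pdyn was -0.22, 0.26 and -0.09 in the same order, Npy 0.19, -0.02 and 0.11, Vip -0.13, 0.10 and -0.01, Cck 0.03, -0.24 and 0.37, and Tac1 0.22, -0.00 and -0.06. On the day of replicates 1 to 4, all 4 Penk replicates were below 0, from -0.79 to -0.27. Day and dye orientation were also mixed. Both arrays of the day with 2 arrays held the knockout in Cy5. The Cy3 arrays of the same replicates 5 and 8 were scanned on the other day of replicates 5 to 8. Cck in replicate 5, for example, was 0.83 with the knockout in Cy5 and -0.20 with it in Cy3, and the part of day and of dye cannot be told apart there. All P1 arrays were scanned on 1 day.

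The knockout effect did not differ detectably between the ages for any member. Of 23251 features tested for this difference, 6 were called (0.0258%), none of them a member. The P1 minus E15 difference was 0.41 for Cck (SE 0.33, adjusted p = 0.960), 0.22 for Npy (SE 0.27, adjusted p = 0.970) and 0.07 for Vip (SE 0.07, adjusted p = 0.960). It was -0.19 for Tac1 (SE 0.20, adjusted p = 0.962), -0.13 for Penk (SE 0.58, adjusted p = 0.993), -0.03 for Sst (SE 0.26, adjusted p = 0.995) and -0.01 for Pdyn (SE 0.22, adjusted p = 0.998). The widest interval was that of Penk, from -1.40 to 1.15, and the narrowest that of Vip, from -0.07 to 0.22.

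Receptors, processing genes, relatives and cell group markers likewise gave 0 calls in each knockout comparison. At E15 the gene with the lowest p-value in each list was Cpe, carboxypeptidase E (0.38, SE 0.12), Foxp2, a striatal transcription factor (0.33, SE 0.10), Htr3a, the serotonin receptor of a group of interneurons (0.35, SE 0.11), Tac4, the tachykinin hemokinin (-0.06, SE 0.02), or the receptor Sstr4 (-0.10, SE 0.06), all with adjusted p from 0.738 to 0.746. Medians of the lists at E15 ran from -0.04 for the relatives to 0.06 for the interneuron genes, against -0.01 for all features. At P1 these genes were Calb2, calretinin (-0.42, SE 0.10, adjusted p = 0.450), Scg2 (-0.50, SE 0.18, adjusted p = 0.512), Pde10a, a striatal phosphodiesterase (0.39, SE 0.17, adjusted p = 0.554), Sstr2 (0.11, SE 0.05, adjusted p = 0.557) and Pyy, the gut relative of Npy (-0.35, SE 0.25, adjusted p = 0.736, values in 2 replicates). For the difference of the ages the lowest p in the interneuron list was that of Gad1, which was at 0.25 at E15 and -0.27 at P1, and the test of that difference, -0.52 (SE 0.17), had an adjusted p of 0.765.

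**Figure D5:**
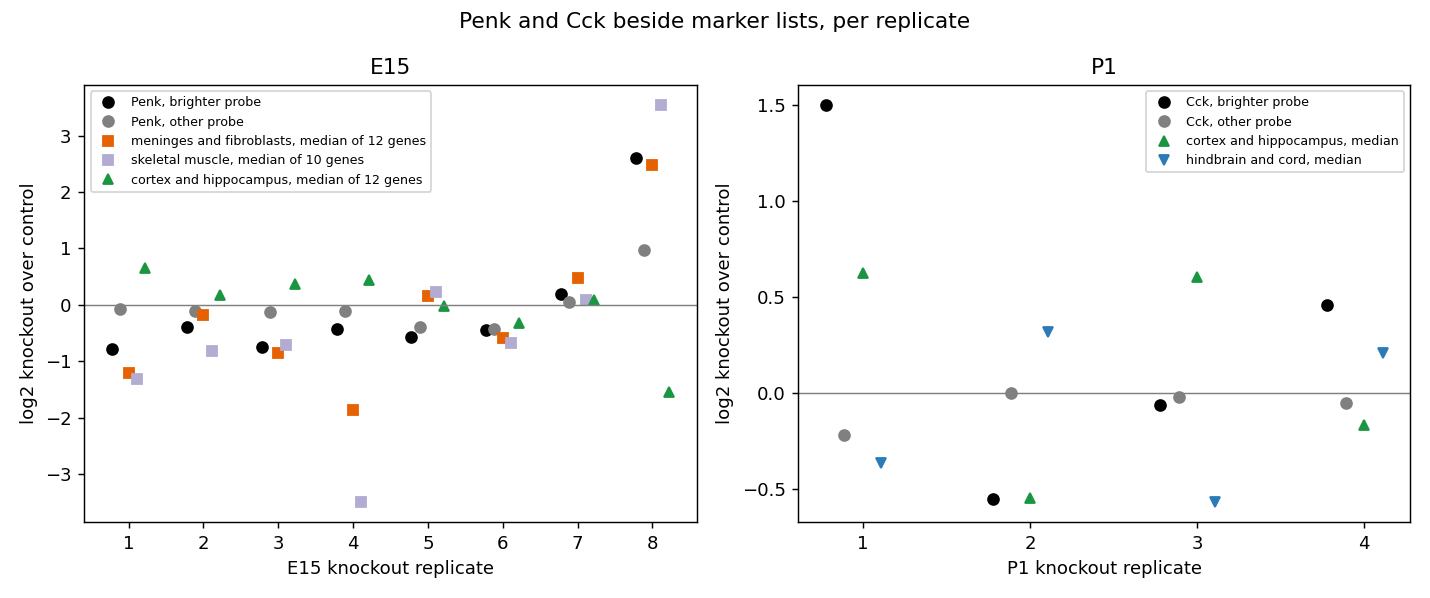
Log2 knockout over control (y axis) per replicate: left, the 2 Penk probes beside the medians of meninges, muscle and cortex genes in the 8 E15 replicates; right, the 2 Cck probes beside the medians of cortex and hindbrain genes in the 4 P1 replicates. In E15 replicate 8 both Penk probes (2.60 and 0.97) and the meninges (2.49) and muscle (3.54) medians are at their highest, and in P1 replicate 1 the 2 Cck probes part (1.499 and -0.22).

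The genes whose knockout over control values followed each member most closely were found by the root mean square (RMS) difference between the values, centred within each age, over the 12 replicates, among 22115 features with all 12 values. Vip varied less than the median feature and was left out. Penk was closest to Tpm1, a tropomyosin (RMS difference 0.34, where the RMS of Penk itself was 0.91), Col9a3, a collagen chain (0.34), and Timp3, an inhibitor of matrix proteases (0.37). All 3 were high in E15 replicate 8, at 1.96, 1.88 and 2.03. Sst was closest to Vps37b (0.16, against 0.41 for Sst itself), Adgrb1 and Gna11 (both 0.17), and Tac1 to Acsl6 (0.13, against 0.32), Bmpr2 (0.13) and Cmtr1 (0.15).

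Cck was closest to Cdh2, the neural cadherin (0.29, against 0.53 for Cck itself), Ctc1 (0.30) and Emc10 (0.31), and Cdh2 was at 0.96 in P1 replicate 1. Npy was closest to Atp6v0d1 (0.20, against 0.42) and Pex5 (0.26), and Pdyn to Hpf1 (0.16, against 0.35), Pgm2l1 and Kcnt1 (both 0.20). No member was among the 3 closest genes of another member. The replicates share control animals and arrays, so this likeness describes these samples and carries no test.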

How the data were processed

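The members and gene lists were chosen with earlier results of these data known. The authors deposited scanner output with raw spot and background intensity for both channels. Per the file headers, it also gives intensity after detrending and dye normalization by the scanner software, and its log10 ratio of Cy5 over Cy3. The authors' deposited value matrix repeats that log10 ratio to within 0.005, not turned for dye. Per the labels' protocols, total RNA from frozen slices of whole brain was DNase-treated, linearly amplified and labelled. Names came from the E15 files through the probe identifier, updated with RefSeq of GRCm38.p6 (33514 of 41174 probes named). Probe coordinates are of an unstated build and are not used here.

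Mean intensity was corrected by normexp (offset 50) and loess within arrays, outlier spots were set to missing, and ratios were turned to knockout over control and averaged per replicate. For E15 replicates 3 and 4, with 1 array each, the mean dye effect of the other 6 was subtracted. Replicates 1 and 2 had a different control in each orientation (6 and 1 for replicate 1, 2 and 3 for replicate 2). Their part of this dye effect thus also holds differences between control animals. Before the subtraction, Cck in replicate 3 was at -0.56 and Penk in replicate 4 at -0.27. For levels, channels were separated after Aquantile and averaged per animal. A gene was represented by its brightest probe, and features well above background in 50% of the channels were tested with at least 2 values per group by limma 3.58.1 (lmFit, eBayes) with statmod 1.5.0 in R 4.3.3, with p-values adjusted by Benjamini-Hochberg over all features at a threshold of 0.05. Replicates sharing controls (1, 4 and 7; 2, 3 and 8) formed a random block (duplicateCorrelation on every 8th feature; consensus correlation 0.0449 at E15 and 0.0820 for the difference of the ages). The P1 controls are numbered as their knockout replicates, from the design text. E15 labels write control numbers partly as digits and partly as words. Equal numbers were taken as the same animal, and the count of E15 controls rests on this. The number of animals limits the precision. The knockout fits at each age and the age fit of control animals were run on simulated independent values. The block for shared controls, the knockout age fit and the difference of the ages were not part of that simulation. Figures used matplotlib 3.10.9 in Python 3.11.15. Named by rule were all members, the 4 genes of each list with the lowest p, and the 3 genes closest to each member; for the knockout comparisons, where no list gene was called, the text was shortened afterwards to the gene with the lowest p of each list, and a few genes the rule names are not reported here. Alternatives were other background correction, scaling, filter, probe rule, blocks and each animal left out. The main fits did not pair animals across the ages by their numbers. Correlations of same-numbered animals ran from -0.13 to 0.24. Differently numbered animals were not correlated for reference, so these values cannot decide whether the numbers pair animals.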

Additional observations from a re-analysis of the deposited data

Results flagged for a closer look

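Of 42 groups of 4 to 8 values of the members, 3 held a sample far from the rest by Dixon's criterion at 95%, where chance alone marks about 1 group in 20. The knockout over control value of Penk in E15 replicate 8 was 2.60, and the next highest was 0.19. The Penk level of P1 control 1 was 10.98, with the other 3 controls between 10.48 and 10.54. The Cck level of P1 knockout 1 was 10.35, with the other 3 knockouts between 8.86 and 9.06. P1 control 1 and P1 knockout 1 were hybridised together, so the Penk level of the one and the Cck level of the other come from the same 2 arrays.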

How the results depend on the processing

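The calls of Sst, Tac1 and Cck between the ages held in both channels under all 6 alternatives and with each animal left out, and 0 members were called in any knockout comparison under any of them. The count of all features called in control animals fell from 9218 to 5118 with the replicate block, which uses 4 animals per age, while in knockout animals it ran from 4350 to 7310 with 1 animal left out. With the replicate block Penk passed in knockout animals (1.02, adjusted p = 0.0231), and no other age call of a member changed; for the difference of the knockout effects 0 features were called with the replicate block, Penk was at 0.37 and Pdyn at 0.23. The count for that difference was 0 with processed signals, deposited log ratios, median centring or outlier spots kept, 33 without the filter, and 3 to 29 with 1 replicate left out. At E15, 1 feature was called with processed signals and with deposited log ratios, and 0 to 1 with 1 replicate left out. Processed signals moved the median age change of all features from -0.08 to -0.18 in control animals.

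Members near 0 changed sign. At E15 these were Pdyn with processed signals (-0.010), deposited log ratios (-0.011), no block for shared controls (-0.0080) and scan days as a random block (-0.0080, with days of replicates 5 to 8 joined), Sst (0.045) and Penk (0.032) with median centring, and Npy (-0.042) and Penk (0.065) with both dye orientations only. At P1 it was Pdyn with median centring (0.019), and in the difference Sst with processed signals (0.023) and deposited log ratios (0.023). With 1 replicate left out, E15 values ran from -0.18 to 0.0079 (Sst), -0.14 to 0.022 (Cck), -0.46 to 0.058 (Penk) and -0.13 to 0.092 (Pdyn), P1 values from -0.054 to 0.63 (Cck), -0.43 to 0.075 (Penk), -0.12 to 0.15 (Pdyn) and -0.29 to 0.076 (Tac1), and differences from -0.17 to 0.072 (Sst), -0.053 to 0.36 (Npy), -0.35 to 0.24 (Penk) and -0.13 to 0.15 (Pdyn). The causes were not tested. A scan day block could not be fitted at P1, where all arrays shared 1 day. List counts without the E15 animals richest in muscle genes, chosen after seeing the data, stayed within 1.5 times except the striatal genes in controls (given above) and the relatives in knockouts, where 1 was then called lower. Signal over background limits Vip most.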
